A study of Homo sapiens with 62 samples.

Results

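Rows of the deposited expression tables were taken by gene symbol: the actins ACTB and ACTG1, the thymosins TMSB4X and TMSB10, the thymosin pseudogene TMSB4XP6, and the actin-binding genes PFN1, CFL1, COTL1, LCP1 and CORO1A. They are 10 of the 55040 rows in each table. Each symbol had a single row, and all 10 passed the filter on low levels described below. The cells were GM12878, an Epstein-Barr virus-transformed human B-lymphoblastoid line without any further genotype or treatment, and polyA RNA was amplified by the SMART-seq method. Pools of 10 cells were divided into 10 portions, which were then handled as if each were a single cell, so that the spread between portions could be read as technical. Of 62 samples in the series, 20 such splits were analysed here, and 42 were not analysed here.

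The splits formed a numbered set, whose titles count the portions from 1 to 10, and an unnumbered set, whose titles give the library numbers 232, 233 and 246 to 253. Both sets share the cell line and the protocol. Whether the 10 splits of a set stem from a common pool or culture is not stated in the labels. The p-values below therefore measure the spread between splits, which may be technical. A difference between the sets cannot be told apart from a difference between the cells that went into them. Of the unnumbered titles, 9 of 10 carry a remark that the library has been superseded by another series, and those versions were not used here. Laboratory experiment numbers put numbered splits 5 to 8 (run a) apart from the other 6 (run b). Whether run a was a separate batch is not given.

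Levels are in FPKM, the fragments on a gene per kilobase of transcript and per megafragment mapped. Estimated depth was 11.8 to 20.6 megafragments in the numbered set. It was 23.3 to 38.7 among the unnumbered splits, apart from 7.79 in split 252 and 0.128 in split 247. FPKM summed over all rows came to 1471330 ± 199456 in the numbered splits and 1215430 ± 47042 in the unnumbered splits (SD, n = 10 each). Mitochondrial protein genes held 2.36% ± 0.292 and 4.76% ± 0.473 of it. Depth and this share thus moved with the set, and their part in the results was not tested. B-cell markers were present in the libraries, with 8 of 8 at 1 FPKM or more in at least 1 split. Their summed level was 7586 to 12989 FPKM in numbered and 3855 to 6368 FPKM in unnumbered splits. The T-cell gene CD3D, the myeloid genes CD14, S100A8 and FCN1, the platelet genes PF4, PPBP, GP9 and GP1BB, and the globins HBA1, HBA2 and HBB were listed at 0 in all 20 libraries. Of the other lists, 4 of 7 T-cell, 2 of 6 myeloid, 1 of 6 platelet, 2 of 7 fibroblast or muscle and 3 of 5 epithelial markers reached 1 FPKM somewhere. The highest summed level in a numbered and an unnumbered split was 239 and 590 FPKM for the T-cell list. It was 53.8 and 1.65 FPKM for myeloid, and 1.98 and 0.431 FPKM for platelet markers. For fibroblast or muscle markers it was 123 and 103 FPKM, and for epithelial markers 139 and 77.0 FPKM.

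Actin exists in cells as monomers and as filaments that grow, branch and are cut. Beta-actin and gamma-actin, from ACTB and ACTG1, are the cytoplasmic forms. Thymosins hold monomers in reserve, profilin (PFN1) exchanges the nucleotide on monomers and hands them to growing ends, and cofilin (CFL1) cuts old filaments. Coactosin-like protein (COTL1) binds filaments, L-plastin (LCP1) bundles them in blood cells, and coronin 1A (CORO1A) links filaments, the branching ARP2/3 complex and the cortex in lymphocytes. In B cells the actin cortex shapes the spread of antigen receptors, migration and the contact with T cells.

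A near-identity of sequence bears on how the thymosin rows can be read, so the coding sequences are given first. They are the GENCODE 29 sequences on GRCh38, 5′ to 3′, each of 135 bases. Capitals mark bases that differ between TMSB4X and TMSB4XP6, and in TMSB10 those that differ from TMSB4X.
TMSB4X coding sequence: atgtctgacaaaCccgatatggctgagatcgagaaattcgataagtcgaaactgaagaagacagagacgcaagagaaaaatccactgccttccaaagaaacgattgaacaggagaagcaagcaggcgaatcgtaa
TMSB4XP6: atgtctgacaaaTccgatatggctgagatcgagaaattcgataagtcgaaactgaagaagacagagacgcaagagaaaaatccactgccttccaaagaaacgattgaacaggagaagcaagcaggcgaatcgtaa
TMSB10 coding sequence: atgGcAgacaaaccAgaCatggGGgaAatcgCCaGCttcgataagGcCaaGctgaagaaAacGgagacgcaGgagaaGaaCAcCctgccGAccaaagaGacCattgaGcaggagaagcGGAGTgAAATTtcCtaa
TMSB4X and TMSB10 lie on the plus strand and TMSB4XP6 on the minus strand.

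TMSB4XP6, an annotated processed pseudogene of 135 bases, differed from the TMSB4X coding sequence by the single substitution C13T, counted from 1 at the first base of the start codon with the TMSB4X base first. The identity was 99.3%. TMSB10 shared 98 of 135 bases with TMSB4X (72.6%). Of the 36 windows of 100 bases in TMSB4XP6, 23 (63.9%) occur also in transcripts of TMSB4X, so a read of that length from them has no single origin. TMSB4X transcripts have 1833 such windows, and the same 23 are 1.25% of them. The coding sequences of ACTB and ACTG1 were alike at 1029 of 1128 bases (91.2%), yet ACTG1 shared no window of 100 bases with another gene, and ACTB shared 3 of 1968, with its pseudogene ACTBP2. TMSB10, CFL1, COTL1 and LCP1 also shared none. PFN1 shared 37 of 1840 windows with PFN1P1, and CORO1A 50 of 2018 with AC133555.4.

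In the deposited coordinates, counted from 1, TMSB4X (ENSG00000205542.6) spans 12993227 to 12995346 on chromosome X, and TMSB4XP6 (ENSG00000230043.1) spans 49457152 to 49457286 on chromosome 20. TMSB10 (ENSG00000034510.4) lies at 85132749 to 85133795 on chromosome 2. ACTB (ENSG00000075624.9) lies at 5566782 to 5603415 on chromosome 7, and ACTG1 (ENSG00000184009.4) at 79476997 to 79490873 on chromosome 17. PFN1 (ENSG00000108518.7) lies at 4848947 to 4852356 on chromosome 17, CFL1 (ENSG00000172757.7) at 65590493 to 65629497 on chromosome 11, and LCP1 (ENSG00000136167.8) at 46700061 to 46786006 on chromosome 13. COTL1 (ENSG00000103187.5) at 84599200 to 84651683 and CORO1A (ENSG00000102879.11) at 30194148 to 30200397 share chromosome 16. For these coordinates, a genome build was not given in the sources used here.

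TMSB4X, TMSB10 and the TMSB4XP6 row were each higher in the numbered splits as deposited, and all 3 calls ended once a trend with transcript length was removed (limma adjusted p = 0.0605, 0.0654 and 0.545). Of the 10 members, 5 were higher in the numbered set and 0 lower, the other 2 being PFN1 and CORO1A (limma on log2(FPKM + 1), Benjamini-Hochberg adjusted p under 0.05). Over all 10506 rows tested, 5.31% were called, 3.93% higher and 1.38% lower. An exact rank-sum test also called these 5 members, and 9.07% of all rows. Abundant rows were called higher far more often, 18.1% of the 1434 rows with a mean of 100 FPKM or more and 56% of the 218 rows with a mean of 1000 FPKM or more. Of the 5 members in that last class, TMSB4XP6, TMSB4X and TMSB10 were called and ACTB and ACTG1 were not, a share near the background. The median log2 difference, numbered minus unnumbered, was 0.70 over the members and 0.35 over all rows tested, so a positive difference has to be read against that general offset. Division by size factors lowered the offset to 0.23 and left 5 members called higher, beside 2.94% of all rows. All rows then split into 309 higher and 194 lower, where the values as deposited gave 413 and 145.

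**Figure D1:**
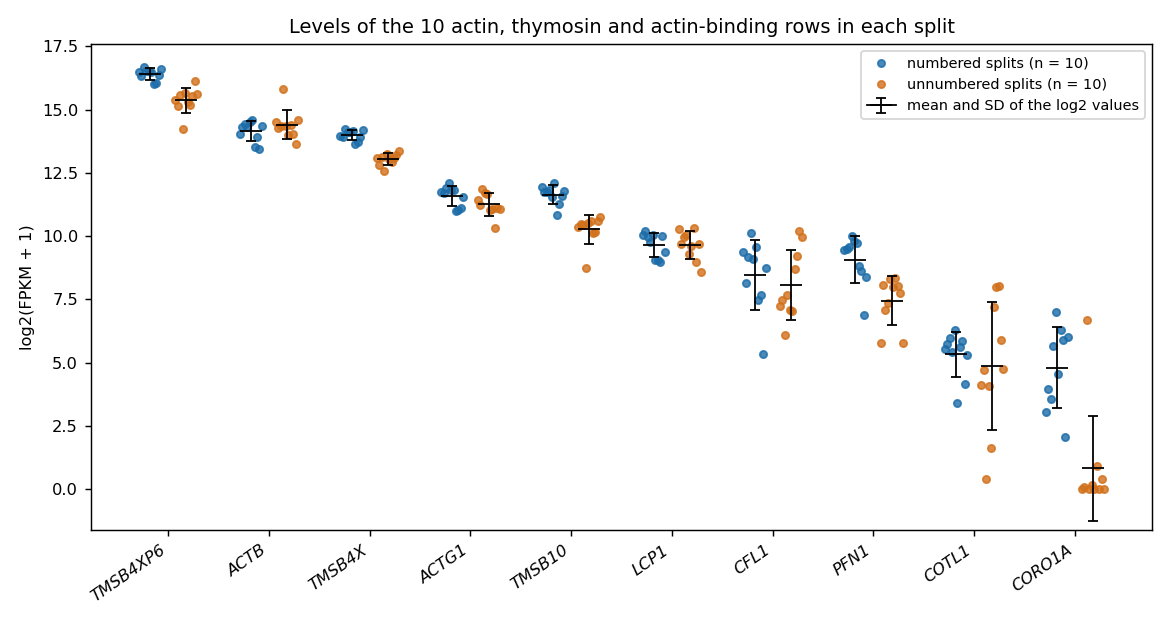
Levels of the 10 rows on a log2(FPKM + 1) axis, with a point for each split and the mean and SD of the log2 values for each set of 10. The TMSB4X and TMSB10 points of the 2 sets do not overlap, and 9 of the 10 unnumbered CORO1A points lie below 1 FPKM.

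TMSB4X, the main sequestering thymosin of blood cells, ran from 12798 FPKM (split 7) through a median of 16793 to 19106 FPKM (split 3) in the numbered set. Among the unnumbered splits it ran from 6151 FPKM (split 247) through 8712 to 10607 FPKM (split 253). Every numbered split lay above every unnumbered split, which was so for 1.65% of all rows tested. That share covers rows of every level and was not taken for abundant rows alone, which were called higher more often. The means were 16424 ± 2155 and 8570 ± 1273 FPKM (SD, n = 10 each), and the log2 difference was 0.94 ± 0.09 (SE; limma adjusted p = 4.05e-08). TMSB4X was also the most even member, with a coefficient of variation (CV, SD over mean) of 0.131 and 0.149 across splits. The median CV of the other rows within 2-fold of its level was 0.192 in the numbered and 0.201 among the unnumbered splits, over 14 and 20 rows.

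TMSB10, a thymosin with the same monomer-binding role, was 1803 FPKM in its lowest numbered split (split 7), 3436 FPKM at the median and 4429 FPKM in its highest (split 6). The unnumbered values went from 423 FPKM (split 247) through 1403 to 1716 FPKM (split 253). Again the sets did not overlap, as for 1.65% of all rows tested, although the gap between 1803 and 1716 FPKM was small. The means were 3270 ± 745 and 1309 ± 360 FPKM, and the log2 difference was 1.36 ± 0.21 (SE; limma adjusted p = 6.45e-05). Without split 247 the TMSB10 difference was 1.19 (adjusted p = 7.17e-06).

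TMSB4XP6 was listed at the highest mean level of all kept rows in both sets. Its values ran from 66235 FPKM (split 7) through 91956 to 105705 FPKM (split 3) in the numbered set, and from 19125 FPKM (split 247) through 44852 to 71567 FPKM (split 252) among the unnumbered splits. Of the numbered splits, 8 lay above all unnumbered ones, and splits 7 and 8 lay below unnumbered split 252. The log2 difference was 1.03 ± 0.15 (SE; limma adjusted p = 2.36e-05). The row held 5.97% ± 0.499 of the summed FPKM of the numbered libraries and 3.64% ± 1.01 of the unnumbered ones (SD, n = 10 each).

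By the authors' bounds, far fewer fragments stood behind that level than behind the TMSB4X level. The upper confidence bound lay a median of 3.49% above the TMSB4XP6 value in the numbered set, but 0.641% above the TMSB4X value. If the bound is counting error alone, 2 square roots of the fragment number, these widths correspond to medians of 3294 fragments on TMSB4XP6 and 98394 on TMSB4X. Split by split, TMSB4XP6 then had 2.78% to 3.19% of the TMSB4X fragments in the numbered set without split 6. Split 6, where the TMSB4X bound was the widest of the numbered set, gave 9.19%. The unnumbered splits gave 1.60% (split 247) to 4.32% (split 252). The deposited TMSB4XP6 level was 62.4 to 63.2 times what its fragments give over 135 bases in the numbered set, and 62.2 to 68.6 times among the unnumbered splits. For TMSB10 that factor was 1.78 to 1.85 over all 20 splits, and for COTL1 it was a median of 1.08 in the numbered set. The TMSB4XP6 factor was nearly constant from split to split, so it cancels in a comparison between them, and its cause was not tested. In genes with several transcripts the bound also holds other errors, and for ACTB the factor was 5.16 to 10.8 in the numbered set, so the fragment numbers of such genes are only a lower estimate. This calculation was added after the levels had been seen.

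The pseudogene row followed TMSB4X closely. Within the numbered set the TMSB4XP6 to TMSB4X ratio stayed between 5.04 and 5.72, and it ranged from 3.11 (split 247) to 7.54 (split 252) among the unnumbered splits. These are the libraries of lowest depth. The mean log2 ratio was 2.41 ± 0.05 and 2.32 ± 0.31, a difference of 0.09 that did not pass the test (2-sided permutation test, 100000 resamples, adjusted p = 0.458, 3 ratios tested). Across the 10 numbered splits TMSB4X and TMSB4XP6 correlated with r = 0.973 (permutation adjusted p = 4e-05 over 4 correlations) and rho = 0.952 (adjusted p = 0.0003). Without splits 7 and 8, the farthest from the median, r was 0.920. In the unnumbered set r was 0.887 (adjusted p = 0.00236) and rho was 0.952 (adjusted p = 0.0003), and r was 0.828 without splits 247 and 253. Of the 36 windows of 100 bases in TMSB4XP6, 23 occur also in TMSB4X, and both rows share the scale of the library. The rows are therefore not independent measures, and these tests cannot tell their transcripts apart.

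Other rows named for pseudogenes of the members were mostly empty. Of 40 such rows, 28 were listed at 0 in all 20 libraries, and 7 reached a mean of 10 FPKM, 6 of them from TMSB4X. TMSB4XP8 stood at 4666 ± 648 FPKM in the numbered and 2542 ± 469 FPKM among the unnumbered splits, a log2 difference of 0.89 (limma adjusted p = 5.45e-06). TMSB4XP1 had 1175 and 815 FPKM, TMSB4XP2 231 and 171 FPKM, and PFN1P1 102 and 43.3 FPKM, with adjusted p of 0.455, 0.340 and 0.203. TMSB4XP3 was above 0 in 1 numbered split only, and TMSB4XP4, at 31.1 and 14.9 FPKM, was not tested because of its status. With its pseudogene rows added, apart from TMSB4XP4, TMSB4X differed by 1.002 on the log2 scale (adjusted p = 5.42e-06). Most of that sum was TMSB4XP6, at a mean of 87684 FPKM in the numbered set against 16424 FPKM for TMSB4X. The value therefore mainly repeats the TMSB4XP6 difference. No pseudogene of ACTB or ACTG1 reached 1 FPKM on average.

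The actins showed no difference that passed the test. ACTB ran from 11104 FPKM (split 9) through a median of 20308 to 24494 FPKM (split 6) in the numbered set. Among the unnumbered splits it ran from 12736 FPKM (split 252) through 20667 to 57224 FPKM (split 247). The sets overlapped. Splits 253 and 247 lay above all numbered splits, and numbered splits 7 and 9 lay below all unnumbered ones. The means were 18657 ± 4642 and 23413 ± 12398 FPKM, and the log2 difference was −0.25 ± 0.19 (SE; limma adjusted p = 0.533). Without split 247 the unnumbered mean was 19657 ± 3764 FPKM (n = 9) and the difference −0.10 (adjusted p = 0.748), so much of the unnumbered spread in ACTB rests on the shallowest library.

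ACTG1 stood at 2019 FPKM (split 7) through 3397 to 4430 FPKM (split 4) in the numbered set and at 1280 FPKM (split 251) through 2305 to 3679 FPKM (split 246) among the unnumbered splits. Of the unnumbered splits, 9 of 10 lay below the numbered median, but the ranges overlapped. The log2 difference was 0.33 ± 0.18 (SE; limma adjusted p = 0.372), close to the offset of all rows. The muscle actins were low or not tested: 1 of 4 passed the filter, ACTA2 at 30.8 ± 43.7 and 13.8 ± 33.2 FPKM (adjusted p = 0.440).

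Taken as a ratio of deposited FPKM within a library, the balance of the actins did differ, which the level of a whole library cannot move. ACTB exceeded ACTG1 by 4.63 to 7.51 times in the numbered splits, with a median of 5.92. In the unnumbered splits the ratio was 5.63 to 17.04, with a median of 8.30, the highest being split 247. The mean log2 ratio was lower in the numbered set by 0.58 (2.56 ± 0.24 against 3.14 ± 0.53; permutation test, 100000 resamples, adjusted p = 0.0064 over 3 ratios). The difference was −0.47 without split 247 (exact permutation test, adjusted p = 0.0128) and −0.69 without run a (exact, adjusted p = 0.0133). By the bounds, the factor of level over fragments had medians of 5.57 (numbered) and 4.73 (unnumbered) for ACTB. For ACTG1 its medians were 4.03 and 2.83. The factor thus varied with gene and set, and its part in this ratio was not tested. ACTB and ACTG1 varied together in the numbered set (r = 0.820, adjusted p = 0.00779; rho = 0.721, adjusted p = 0.0319; r = 0.631 without splits 7 and 9). In the unnumbered set r was 0.484 (adjusted p = 0.156) and rho 0.442 (adjusted p = 0.204). Rows of a library share its scale, and the correlation in the numbered set was not particular to the actins. There ACTB also had r = 0.823 with CFL1 and 0.774 with TMSB4X, though 0.124 with LCP1 and 0.089 with COTL1.

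The balance of the thymosins differed in the same way. TMSB4X stood at 4.04 to 7.10 times TMSB10 in the numbered splits, with a median of 5.18, and at 5.10 to 14.6 times in the unnumbered splits, with a median of 6.43. The mean log2 ratio was 2.36 ± 0.25 in the numbered and 2.77 ± 0.41 among the unnumbered splits, a difference of −0.42 (permutation test, 100000 resamples, adjusted p = 0.0064). Thus TMSB10 was lower than TMSB4X by more among the unnumbered splits. Without split 247, where the ratio was 14.6, the difference was −0.30 (exact permutation test, adjusted p = 0.0128), and without run a it was −0.50 (exact, adjusted p = 0.0112). The median transcript length was 697.5 bases for TMSB4X and 496 bases for TMSB10. Shorter rows were higher in the numbered set, as given below, and this ratio was not tested with the length trend removed.

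**Figure D2:**
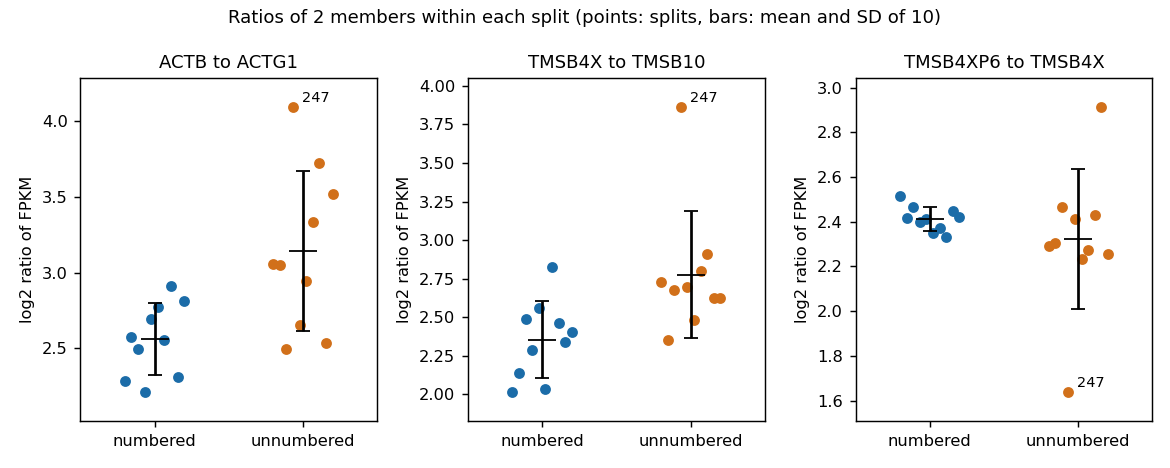
Ratios of 2 members within each split on log2 axes, with a point for each of the 10 splits of a set and the mean and SD of the log2 ratios. The ACTB to ACTG1 and TMSB4X to TMSB10 ratios lie lower in the numbered set, and the TMSB4XP6 to TMSB4X ratio is narrow in the numbered set (5.04 to 5.72) and wide among the unnumbered splits (3.11 to 7.54).

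Among the actin-binding genes, PFN1 and CORO1A were called higher in the numbered set, and CFL1, COTL1 and LCP1 were not called. PFN1, the profilin of most cells, was 118 FPKM (split 9) through 708 to 1027 FPKM (split 4) in the numbered set and 54.4 FPKM (split 232) through 232 to 326 FPKM (split 250) among the unnumbered splits. Of the numbered splits, 9 lay above every unnumbered split, the exception being split 9. The means were 624 ± 286 and 205 ± 99.8 FPKM, and the log2 difference was 1.62 ± 0.43 (SE; limma adjusted p = 0.0241). The PFN1 call ended in several alternatives: the adjusted p was 0.0525 with values rescaled to TPM, 0.0511 over protein-coding rows alone, 0.0729 with the length trend removed, 0.145 without run a and 0.119 with run a as a covariate.

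CORO1A, a coronin of leukocytes, was detected in all numbered splits, from 3.21 FPKM (split 9) through a median of 36.2 to 128 FPKM (split 5). In the unnumbered set 4 splits were listed at 0, 5 had 0.0178 to 0.906 FPKM, and split 246 alone had 103 FPKM. Of the unnumbered splits, 9 therefore lay below every numbered one, and split 246 lay above 9 of the 10 numbered ones. The log2 difference was 3.98 ± 0.90 (SE; limma adjusted p = 0.00599), a fitted value that depends on the pseudocount and fell to 1.67 (adjusted p = 0.0612) with a pseudocount of 10. CORO1A was 71.9 ± 44.1 FPKM in run a (n = 4) and 24.9 ± 25.2 FPKM in run b (n = 6). Without run a the adjusted p was 0.105, and the covariate fit for run a gave 3.23 (adjusted p = 0.0826).

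LCP1 had nearly the same mean in both sets. Its values were 507 FPKM (split 8) through 926 to 1170 FPKM (split 2) in the numbered set and 387 FPKM (split 253) through 826 to 1268 FPKM (split 250) among the unnumbered splits. The means, 841 ± 258 and 849 ± 293 FPKM, differed by less than the SD of either set (log2 difference 0.01 ± 0.25 SE; limma adjusted p = 0.992). This LCP1 value lay below the median offset of all rows and changed sign with the scaling, to −0.23 with size factors.

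CFL1 was the member with the widest spread among those above 100 FPKM on average. It went from 39.9 FPKM (split 9) through 489 to 1115 FPKM (split 4) in the numbered set and from 67.4 FPKM (split 246) through 190 to 1181 FPKM (split 252) among the unnumbered splits. Its CV was 0.670 and 0.977, against medians of 0.439 and 0.607 over rows within 2-fold of its level. The log2 difference was 0.41 ± 0.58 (SE; limma adjusted p = 0.717). In the numbered set CFL1 moved with PFN1 (r = 0.902 over the 10 splits, given as a description), and among the unnumbered splits it did not (r = −0.08).

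COTL1 lay at 9.76 FPKM (split 6) through 46.7 to 76.7 FPKM (split 5) in the numbered set. Among the unnumbered splits it reached from 0.314 FPKM (split 246) through 25.6 to 257 FPKM (split 251). Splits 249, 250 and 251, with 148, 254 and 257 FPKM, lay above all numbered splits, and splits 246 and 248 lay below them all. The CV was 0.445 in the numbered set, where the median of rows within 2-fold of its level was 1.26, and 1.27 among the unnumbered splits, where that median was 1.19. The log2 difference was 0.45 ± 0.87 (SE; limma adjusted p = 0.799).

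By deposited FPKM, which is meant per length, the order of mean levels in the numbered set was TMSB4XP6, ACTB, TMSB4X, TMSB10, ACTG1, LCP1, PFN1, CFL1, COTL1 and CORO1A. The first place of TMSB4XP6 rests on its factor over fragments given above: by fragments per kilobase and megafragment its numbered median was 1469, against 8625 for TMSB4X, 3255 for ACTB and 1879 for TMSB10. The ACTB value is only a lower estimate, as given above, and does not place ACTB below TMSB4X. Neighbours that changed places in several splits were TMSB10 and ACTG1 (TMSB10 above in 6 of 10) and COTL1 and CORO1A (COTL1 above in 4 of 10). In the unnumbered set ACTG1 came before TMSB10, in 10 of 10 splits, and CFL1 before PFN1, in 6 of 10. ACTB exceeded TMSB4X in 8 of 10 numbered and in 10 of 10 unnumbered splits. Among all kept rows the mean ranks were 3 and 4 for ACTB, 6 and 14 for TMSB4X, 91 and 147 for TMSB10, 94 and 60 for ACTG1, and 2527 and 5479 for CORO1A.

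As a share of summed FPKM, all 10 rows held 8.91% ± 0.505 in the numbered and 6.72% ± 0.685 in the unnumbered libraries. The thymosin rows made up 7.31% ± 0.580 and 4.45% ± 1.10, and the actin rows 1.46% ± 0.193 and 2.14% ± 1.07. Most of the thymosin share was the TMSB4XP6 row, and without it the other 9 members held 2.94% ± 0.192 and 3.08% ± 0.978, so the higher total in the numbered set rests on that row. TMSB4X and TMSB10 together held 1.34% ± 0.0901 and 0.812% ± 0.119. The other 5 genes together held 0.136% ± 0.0338 and 0.127% ± 0.0313. The actin share was highest in split 247, at 5.02%, where the thymosin share was lowest, at 2.13%.

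Transcript length moved with the difference between the sets, and its part in the results was not tested beyond the values given here. Among rows of 100 FPKM or more, the median log2 difference was 1.37 for the 89 rows of up to 300 bases, the class of TMSB4XP6, of which 43.8% were called higher. It was 0.69 for the 269 rows of 300 to 700 bases, the class of TMSB4X and TMSB10, with 35.7% called higher. Rows of 700 to 1500 bases (528, with PFN1 and CFL1) had a median of 0.38. Rows of 1500 to 3000 bases (387, with ACTB and ACTG1) had −0.20, and the 152 longer rows, with LCP1, had −0.61. The thymosins thus fell within the short classes that were higher in the numbered set as a whole. TMSB10, at 1.36, lay above the upper quartile of its class (1.24), and TMSB4X, at 0.94, above the median of that class. TMSB4XP6, at 1.03, lay below the median of its class.

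With the length trend removed within each library, CORO1A was the only member called (3.67, adjusted p = 0.00988), and 2.11% of 10308 rows were called higher. TMSB4X was then at 0.42 ± 0.13 (SE; limma adjusted p = 0.0605), TMSB10 at 0.71 ± 0.22 (adjusted p = 0.0654) and PFN1 at 1.26 ± 0.40 (adjusted p = 0.0729). TMSB4XP6 turned to −0.32 ± 0.24 (adjusted p = 0.545). All rows then split into 218 higher and 238 lower.

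**Figure D3:**
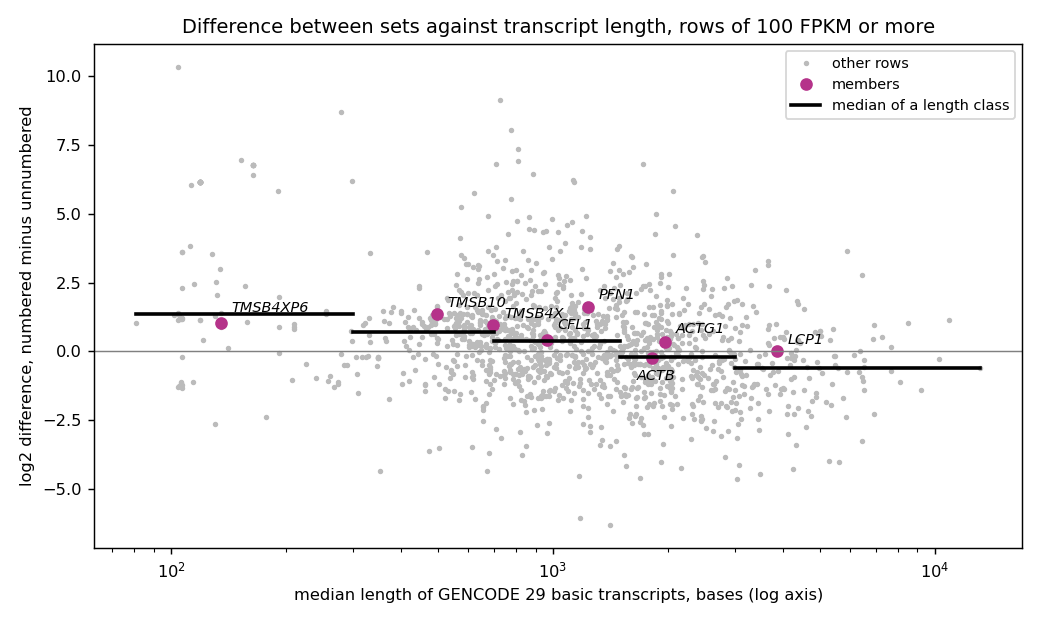
The log2 difference between sets against the median length of the GENCODE 29 basic transcripts (log axis), for rows of 100 FPKM or more. Black bars give the median of each length class, from 1.37 in the shortest to −0.61 in the longest, and the 8 members in this range are named.

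**Figure D4:**
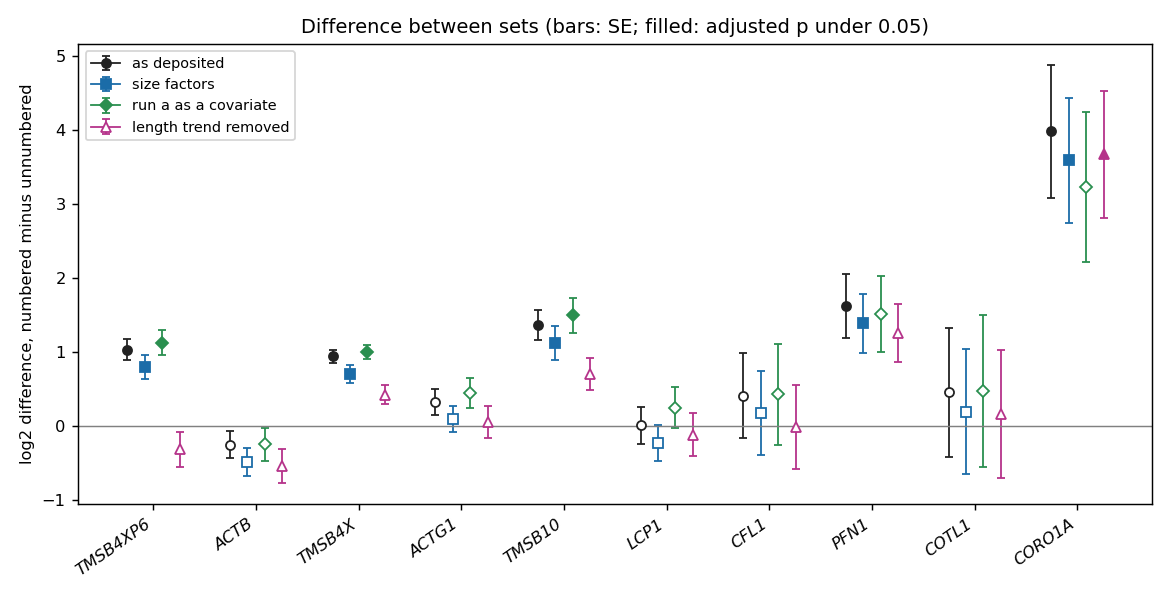
The log2 difference of each member, numbered minus unnumbered, with its SE, under 4 settings, filled where the adjusted p was under 0.05. TMSB4X and TMSB10 stay above 0 in all 4, TMSB4XP6 lies below 0 with the length trend removed, and LCP1 lies on both sides of 0.

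Within the numbered set, 0 of 10 members were called between run a and run b, beside 1 of all 10506 rows (0.00952%). The log2 difference, run a minus run b, was 1.88 for CORO1A, −0.59 for LCP1 and −0.34 for TMSB10, with limma adjusted p of 0.824 for each. All others lay within 0.29 of 0. Against run b alone the thymosins remained called, TMSB4X at 0.999, TMSB10 at 1.496 and TMSB4XP6 at 1.12, and 3 members were called in all. In that fit 330 of 10506 rows were called higher. With run a as a covariate in the model the same 3 members were called, beside 2.73% of all rows as higher.

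Over the 45 pairs of members, the median correlation across splits was 0.36 in the numbered set, with 37 pairs above 0, and −0.07 among the unnumbered splits, with 17 above 0. These correlations are descriptions, since rows of a library share its scale. The lowest was −0.85 for ACTG1 and COTL1 among the unnumbered splits, where rho was −0.964. For ACTB in that set, r was −0.853 with TMSB4XP6 and −0.831 with TMSB10, but rho was −0.345 and −0.406. ACTB was highest and both of these thymosin rows were lowest in unnumbered split 247, and the pairs were not taken without it. The rows whose pattern over the 20 splits, centred within each set, was most like that of a member were sought among 1426 other rows of 100 FPKM or more. For TMSB4X they were TMSB4XP8 (r = 0.953), RPL23A (0.838) and RP11-3P17.3 (0.833). For ACTB they were AL162151.3 (0.816) and the immunoglobulin lambda rows IGLC3 (0.806) and IGLV2-14 (0.797), which were 0.714, 0.629 and 0.631 without split 247. For LCP1 they were RPL3P4 (0.704), C17orf49 (0.680) and NDUFAB1 (0.666).

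Other genes of actin regulation were taken from 9 lists of 140 genes, of which 103 were tested. In all, 3 were higher and 4 lower in the numbered set, beside 3.93% higher and 1.38% lower over all rows, so the higher calls lay near the background. The median log2 difference was 0.49, against 0.35 over all rows. The ARP2/3 complex, which starts branches on existing filaments, had 3 of 9 subunits lower and 0 higher. ARPC2 was at 283 ± 143 FPKM in the numbered and 771 ± 242 FPKM among the unnumbered splits (−1.64 ± 0.39 SE; limma adjusted p = 0.00895). ARPC4 was at 153 ± 75.3 and 394 ± 133 FPKM (−1.43; adjusted p = 0.0246), a call that ended in the covariate fit for run a (0.181) and without run a (0.0548). ARPC1A had a median of 0.0183 FPKM and a highest value of 43.7 FPKM in the numbered set against a median of 130 FPKM among the unnumbered splits (−5.19; adjusted p = 0.00107). ARPC3, the most abundant subunit, was at 1297 ± 515 and 680 ± 509 FPKM and was not called (adjusted p = 0.245).

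Among capping and severing genes, 1 of 12 was higher and 1 lower. CAPZA1, a capping-protein subunit that blocks filament ends, was at 481 ± 167 FPKM in the numbered and 1699 ± 354 FPKM among the unnumbered splits (−1.88 ± 0.24 SE; limma adjusted p = 3.72e-06). Its ranges, 171 to 755 and 946 to 2176 FPKM, did not overlap. Every numbered split lay below every unnumbered split in 0.352% of all rows tested, a share not taken for abundant rows alone. CAPG, a gelsolin-family capping protein, was at 246 ± 157 and 98.8 ± 189 FPKM (4.37; adjusted p = 0.0466), a call lost with, among others, size factors (0.0625), the length trend removed (0.0667), split 247 left out (0.0962) and run a left out (0.314).

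Among branching regulators 1 of 17 was higher, WASF2, a subunit of the WAVE complex that activates ARP2/3, at 42.2 ± 32.98 against 0.927 ± 1.60 FPKM (4.08; limma adjusted p = 0.00135). BRK1, the most abundant of that list, was at 353 ± 266 and 258 ± 158 FPKM (adjusted p = 0.997).

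Of 12 myosins and tropomyosins 1 was higher, the non-muscle myosin heavy chain MYH9, at 34.5 ± 29.7 against 3.46 ± 2.80 FPKM (2.80; limma adjusted p = 0.0181). With run a as a covariate the MYH9 adjusted p was 0.0737. The light chain MYL6, the most abundant of that list, was at 1766 ± 336 and 1709 ± 517 FPKM (adjusted p = 0.791). No gene was called among 17 of monomer and filament turnover, 10 formins and elongators, 19 bundlers, crosslinkers and membrane linkers, 6 of the SRF and MRTF axis, or the muscle actin. Their most abundant genes were ABRACL (353 ± 119 and 456 ± 243 FPKM), DAAM1 (83.5 ± 73.0 and 58.3 ± 56.3), EZR (262 ± 141 and 187 ± 83.5) and TAGLN2 (296 ± 208 and 256 ± 216). Of the 19 bundlers and linkers, the list nearest in role to LCP1, 17 lay above 0 with a median of 1.31, where 59.9% of all rows lay above 0. None of them passed the test, and the list was not compared with other rows by a test. CAPZA1, ARPC1A, ARPC2 and WASF2 kept their calls with size factors, TPM, the length trend removed, run a left out or as a covariate, no filter, and split 247 left out.

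**Figure D5:**
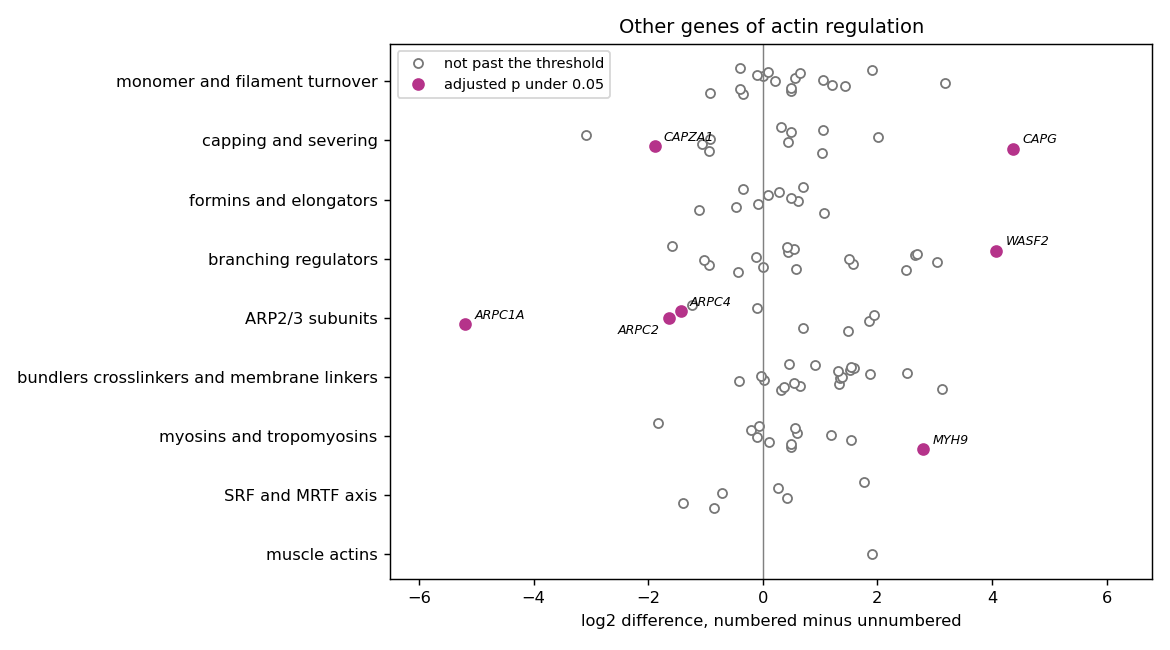
The log2 difference, numbered minus unnumbered, of 103 other genes of actin regulation in 9 lists, a point for each gene and filled where the adjusted p was under 0.05. The ARP2/3 subunits ARPC1A, ARPC2 and ARPC4 and the capping subunit CAPZA1 lie to the left, and CAPG, WASF2 and MYH9 to the right.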

How the data were processed

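Picked GM12878 cells were lysed, their RNA amplified with a SMARTer kit and the cDNA prepared with Nextera for Illumina sequencing, per the labels' protocols. The authors deposited FPKM with confidence bounds for 55040 rows, for which the submitters' processing notes name Cufflinks 2.0.2 and TopHat 1.4.1. Depth was estimated from 10 mitochondrial genes, whose upper bound exceeds the value by 2 square roots of the number of fragments.

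Rows with status LOWDATA in every library (5797) or FAIL in any (128) and rows with a mean under 1 FPKM were left out, leaving 10506. These were tested with limma 3.58.1 (R 4.3.3, trended variance) on log2(FPKM + 1), a scale that understates changes of low genes, with Benjamini-Hochberg adjustment over all 10506 rows and a threshold of 0.05. Ratios used log2(FPKM + 1) and permutation tests in Python 3.11.15 (100000 resamples, or exact with fewer than 10 splits in a set). Adjusted p without another test named are from limma. The code was tested on simulated data. Size factors were medians of ratios. Lengths came from GENCODE 29, for 10308 tested rows. No 2 libraries held identical values (0 pairs).

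Named genes were the members, from each list every gene called and the most abundant, the 3 rows most like ACTB, TMSB4X and LCP1, and pseudogene rows with a mean of 10 FPKM or more. Pseudogenes on chromosome Y were left out. A further gene list is not reported here. The members and lists were chosen with earlier results of these data known. In these libraries, made from portions of 10-cell pools, fewer cells with a transcript and less RNA per cell cannot be told apart. Alternatives covered the pseudocount, filter, scale, length, runs, splits left out, protein-coding rows, array weights and a rank-sum test.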

Additional observations from a re-analysis of the deposited data

Results flagged for a closer look

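In groups of 10 splits, 4 of the 26 groups examined held a value far from the others, by Dixon's gap-to-range ratio at the 95% level. Chance gives about 1 in 20 for independent groups of normal values. The groups here are not independent, since ratios were examined beside the members that make them up. The count was therefore not tested against that share. ACTB was highest in unnumbered split 247, at 57224 FPKM, where the next split had 24881 FPKM. TMSB10 was lowest in the same split, at 423 FPKM against 1111 FPKM in the next. The TMSB4X to TMSB10 ratio was highest there too, at 14.6 against 7.51. Split 247 was also the shallowest library, at 0.128 megafragments, and its upper bound lay 52.1% above the TMSB10 value and 3.65% above the ACTB value. CORO1A was highest in unnumbered split 246, at 103 FPKM, where the next split had 0.906 FPKM.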

How the results depend on the processing

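Leaving out each of the 20 libraries in turn, an alternative added after the data were seen, kept all 5 members called, beside 384 to 467 of 10506 rows as higher. The members called higher fell from 5 to 1 with the length trend removed, beside 218 of 10308 rows. They fell to 3 without run a (330 of 10506 rows) and with run a as a covariate (287 of 10506 rows). Over protein-coding rows only, where TMSB4XP6 is not tested, they were also 3, beside 229 of 8513 rows. No member was lower in these settings. The list genes called higher fell from 3 to 1 with run a as a covariate, and were 2 to 5 with single libraries left out, the 5 without numbered split 9. Signs turned only in values that had not passed the test, apart from TMSB4XP6 (−0.32 with the length trend removed). LCP1 was −0.23 with size factors, −0.26 with TPM, −0.12 with the length trend removed, −0.11 without splits 9, 247 and 253, and −0.11 to 0.080 with single libraries left out. CFL1 was −0.011 with the length trend removed, ACTB 0.028 without splits 9, 247 and 253, COTL1 −0.046 to 0.80 with single libraries left out (lowest without split 246), and PFN1, run a minus run b, −0.14 without split 9. The cause of these shifts was not tested. No paired analysis was possible because the titles of the 2 sets share no replicate numbers. At the depth of split 247 low levels are poorly measured. Over the 6 unnumbered splits with CORO1A above 0, its bound lay a median of 252% above the value. Split 247 was not among them, and the widest bound, 486%, was in split 233, at a depth of 38.7 megafragments.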
